A study of Mus musculus with 6 samples.

Results

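Chemokine ligands are the genes of the secreted or membrane-bound chemoattractant proteins of the CC, CXC and CX3C classes. Taking every gene whose symbol is Ccl, Cxcl or Cx3cl followed by a number, and leaving out the interferon-induced Cxcl9, Cxcl10 and Cxcl11, gave 13 genes of the 7384 measured. Expression was read by RNA sequencing in vascular smooth muscle cells, which contract to set the width of arteries, isolated and cultured from mouse aorta. In the siSirt6 group, 3 cultures were treated for 48 h with a small interfering RNA against Sirt6, whose sirtuin protein removes acyl groups from histones and other proteins with NAD. The Control group held 3 cultures kept for the same 48 h. No source used here gives what Control cultures received, or the strain, age and number of the mice. The study asked what knockdown of Sirt6 changes in these cells. Nothing in the labels says that the 3 samples of a group came from separate animals, so the p-values measure the spread between these samples, which may be technical.

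Chemokines attract leukocytes by binding G-protein-coupled receptors, and they are held on cell surfaces and matrix by glycosaminoglycan chains. The spacing of the first cysteines divides them into CC, CXC and CX3C classes. CC ligands mainly attract monocytes and eosinophils, CXC ligands with a Glu-Leu-Arg motif attract neutrophils, and CXCL12 and CXCL13 guide stem cells and B cells. In the artery wall, smooth muscle cells are a known source of monocyte chemoattractants, and many chemokine genes are known targets of the transcription factor NF-kB.

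The values are normalised read counts, each a whole number of reads divided by 1 factor per library. The genes listed took between 14458847 and 15526399 reads per library. The tables hold almost only genes that differ between the groups: of 7179 genes tested with limma, 50.5% were called higher and 49.3% lower in siSirt6 (adjusted p below 0.05), and in 96.8% the 3 siSirt6 and 3 Control values did not overlap. A call alone therefore says little about a ligand, and its size, direction and stability are given below. Sirt6 stood at 0.215 of its Control level in the siSirt6 libraries (log2 fold change -2.21 ± 0.141 SE, n = 3 per group). Of 10 smooth muscle markers 8 were listed, 6 higher and 2 lower. The most abundant was Acta2, at 96836 ± 420 in siSirt6 and 58253 ± 107 in Control libraries (SD, n = 3). Endothelial markers were listed for 8 of 10 genes, all 8 higher, with summed counts of 1806 to 1973 in siSirt6 and 987.5 to 1129 in Control libraries. Adventitial fibroblast markers were listed for 9 of 10 genes, 3 higher and 6 lower, with summed counts of 82225 to 83654 in siSirt6 and 98395 to 99513 in Control libraries. Most of these sums was Gsn, named after its values were seen, at 57433 ± 590 in siSirt6 and 72100 ± 521 in Control libraries (SD, n = 3). Macrophage and leukocyte markers were listed for 3 of 14 (Lyz2, C1qb and Cd68), with summed counts of 1978 to 2018 in siSirt6 and 1777 to 1822 in Control libraries; the other 11, Ptprc among them, and all 6 lymphocyte and 5 neutrophil markers were not analysed here. The part of such cells in the ligand results was not tested. In these cultures, fewer cells of a type and less RNA per cell cannot be told apart.

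Of the 13 ligand genes, 12 passed the filter of at least 10 normalised reads in at least 3 libraries, and Cxcl3 did not. Ccl11 passed only through the siSirt6 libraries, so it had to be higher to be tested: it is among the higher calls counted below but supports none of these counts. Of the 12, 7 were called higher and 5 lower, beside 50.5% and 49.3% of all tested genes. Together 12 of 12 were called, beside 99.8% of tested genes, and both shares were near their background. Adjusted over all annotated genes, 6 were higher and 4 lower, beside 45.9% and 44.4%. The sizes ranged from a log2 fold change of -3.27 for Cxcl13 to 3.03 for Cxcl5. The median, which includes Ccl11, was 0.34, beside 0.08 over all tested genes. After the correction for transcript length and GC content described further on, it was 0.18, beside -0.01 over tested genes with a length. Calls with a log2 fold change of 1 or more were made for 3 ligands (Cxcl5, Ccl11 and Ccl7), beside 4.01% of tested genes, and calls of -1 or less for 2 (Cxcl13 and Ccl6), beside 3.71%. The other 18 of the 31 ligand symbols that the mouse annotation holds under the same rule, among them Ccl5, Ccl12 and Cxcl2, were not analysed here.

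**Figure D1:**
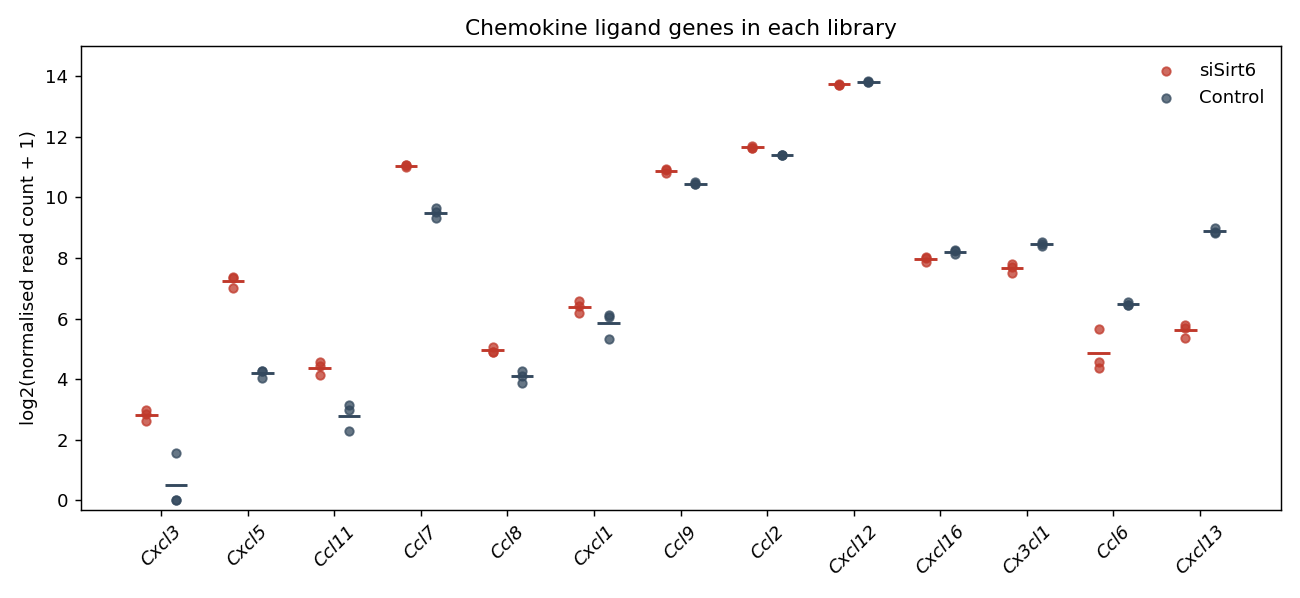
Values of the 13 chemokine ligand genes as log2(normalised read count + 1) on the vertical axis, with 1 point per library and a bar at the mean of each group, siSirt6 left of Control. Genes run along the horizontal axis from the highest to the lowest ratio of group means, from Cxcl3, at 0 in 2 Control libraries, to Cxcl13, whose siSirt6 libraries lie between 40.2 and 54.4 reads and whose Control libraries lie between 457.8 and 505.3.

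Among the neutrophil-attracting CXC ligands, Cxcl5 had the largest rise of the tested ligands. Its normalised read counts were 161.2, 127.8 and 163.4 in the siSirt6 libraries and 15.6, 18.5 and 18.3 in the Control libraries. Every siSirt6 library lay far above every Control library. The ratio of means was 8.62, with a log2 fold change of 3.03 ± 0.199 (SE, n = 3 per group, limma adjusted p = 2.57e-15). Cxcl5 lies on chromosome 5 at 90759360 to 90761624 on the plus strand (GRCm38, the build also called mm10).

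Cxcl1 and Cxcl3, which encode ligands of the same neutrophil receptor CXCR2, lie beside it, within a span of 133.8 kb. Cxcl1 counts were 84.0, 93.8 and 71.8 in siSirt6 libraries and 69.3, 66.2 and 39.6 in Control libraries. The groups were separated by a narrow margin, and Control replicate 3 was the lowest library. Cxcl1 rose 1.43-fold (log2 0.54 ± 0.195 SE, adjusted p = 0.00994), and without Control replicate 3 the value was 0.28 (adjusted p = 0.141). Cxcl3 was close to the limit of detection, with 7, 5 and 6 reads in siSirt6 libraries and 2, 0 and 0 in Control libraries. Over the group, 18 reads against 2 give a ratio of 8.70 per listed read, with an exact 95% interval of 2.08 to 77.3 that covers counting error only. A count of 0 reads, as in 2 Control libraries, still allows up to 3 reads per library. Of the 50-base stretches in the Cxcl3 transcript, 6.31% also occur in Cxcl2, which was not analysed here. No source used here tells how such reads were counted.

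The upstream sequence of Cxcl1 is shown because its NF-kB match recurs in the same form at Cxcl3. The 250 bases before the start site lie at chr5:90890995-90891244 on the plus strand (RefSeq, GRCm38.p6), printed 5′ to 3′ with the match to the NF-kB consensus in capitals. It reads as a match on both strands, shifted by 1 base.
Cxcl1: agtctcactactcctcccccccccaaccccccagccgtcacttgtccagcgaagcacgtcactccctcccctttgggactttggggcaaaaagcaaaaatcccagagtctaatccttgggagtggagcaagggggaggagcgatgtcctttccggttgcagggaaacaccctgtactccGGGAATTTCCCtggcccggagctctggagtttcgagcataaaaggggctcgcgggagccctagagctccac
The Cxcl3 window holds the same GGGAATTTCCC, with its downstream end 62 bases before the start site and that of Cxcl1 at 60. Promoter sequence was found for 8 of the 13 ligands, and Cxcl5, Ccl7, Ccl2, Ccl11 and Cxcl16 had no entry. Among the 8, the NF-kB consensus matched 3 (Cxcl1, Cxcl3 and Ccl9), beside 7.25% of all 32851 promoter windows of this length. The AP-1 motif TGANTCA matched 1 (Ccl9) beside 6.75%, and TATAAA matched 5 beside 12.4%, each searched on both strands. A match describes the letters and is no evidence of binding.

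Cxcl13, which attracts B cells and is made by the stroma of lymphoid follicles, had the largest fall of the ligands tested. Its counts were 54.4, 40.2 and 51.0 in siSirt6 libraries, against 458.6, 505.3 and 457.8 in Control libraries. The lowest Control library exceeded the highest siSirt6 library several-fold. It fell to 0.102 of the Control mean (log2 fold change -3.27 ± 0.125 SE, n = 3 per group, adjusted p = 7.76e-22). With any 1 library left out, the log2 fold change lay between -3.36 and -3.14. Cxcl13 lies on chromosome 5 at 95956951 to 95961068, also on the plus strand. Of 6 markers of follicular and reticular stroma only Pdpn was listed, at 5112 ± 84.3 in siSirt6 and 4221 ± 62.4 in Control libraries (SD, n = 3).

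The Cxcl13 upstream window is shown because this gene had the largest change, in either direction, of the tested ligands. It covers chr5:95956689-95956938 on the plus strand (RefSeq, GRCm38.p6), with the TATAAA box in capitals, ending 40 bases before the start site. Neither the NF-kB consensus nor TGANTCA occurs in these letters.
Cxcl13: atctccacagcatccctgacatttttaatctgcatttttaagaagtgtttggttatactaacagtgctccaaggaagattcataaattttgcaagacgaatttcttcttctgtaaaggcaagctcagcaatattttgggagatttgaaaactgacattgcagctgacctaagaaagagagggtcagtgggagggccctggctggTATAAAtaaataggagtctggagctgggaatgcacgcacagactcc

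Cxcl5 and Cxcl13 changed places. In a library, the ratio of Cxcl5 to Cxcl13 (each count + 1) was 2.93, 3.13 and 3.16 in the siSirt6 libraries and 0.0361, 0.0385 and 0.0422 in the Control libraries. The difference of mean log2 ratios was 6.30 ± 0.0733 (SE, n = 3 per group). This SE and those of the ratios below come from the 3 ratios of each group alone, unlike the limma SEs above. Such an SE may understate the error, since Cxcl5 rested on 54 reads summed over Control libraries (95% counting interval 40.6 to 70.5). These are the tested ligands with the largest rise and the largest fall. This pair and the pairs below were chosen with the values known, so no test was run on them.

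The homeostatic ligand Cxcl12, which retains stem and progenitor cells through the receptor CXCR4, was the most abundant ligand by reads. Its counts were 13510, 13472 and 13848 in siSirt6 libraries and 14366, 14319 and 14751 in Control libraries. The groups did not overlap, but the gap was small beside the level. Cxcl12 stood at 0.940 of its Control level (log2 -0.09 ± 0.0197 SE, adjusted p = 1.22e-04). After correction for transcript length and GC content, described with the transcript lengths further on, the value was 0.13 (adjusted p = 4.02e-07), so the direction for Cxcl12 depends on that step.

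Cxcl16 and Cx3cl1 encode the ligands made as membrane proteins, which can hold leukocytes or be shed as soluble chemokines. Both fell. Cx3cl1, known as fractalkine, had counts of 182.9, 222.7 and 208.1 in siSirt6 libraries, against 352.2, 336.9 and 366.0 in Control libraries. It fell to 0.582 of Control, with no overlap (log2 -0.78 ± 0.0932 SE, adjusted p = 4.57e-09). The count of Cxcl16 was 249.1 ± 13.3 in siSirt6 and 296.1 ± 16.0 in Control libraries (SD, n = 3). This fall was to 0.841 (log2 -0.25 ± 0.0900 SE, adjusted p = 0.00982), and it missed the threshold when adjusted over all 55536 annotated genes (adjusted p = 0.0760). Of 2513 stretches of 50 bases in the Cxcl16 transcript, 503 also occur in the overlapping gene Zmynd15 on the other strand. The library kit kept strand, but no source used here tells whether counting did, so reads of the shared stretches cannot be told apart. Adam10 and Adam17, the proteases known to shed both ligands, were named after their values were seen. Adam10 averaged 1521 ± 37.8 in siSirt6 and 2278 ± 89.8 in Control libraries and fell to 0.668. Adam17 averaged 984.1 ± 43.6 in siSirt6 and 1314 ± 24.3 in Control libraries and fell to 0.749.

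**Figure D2:**
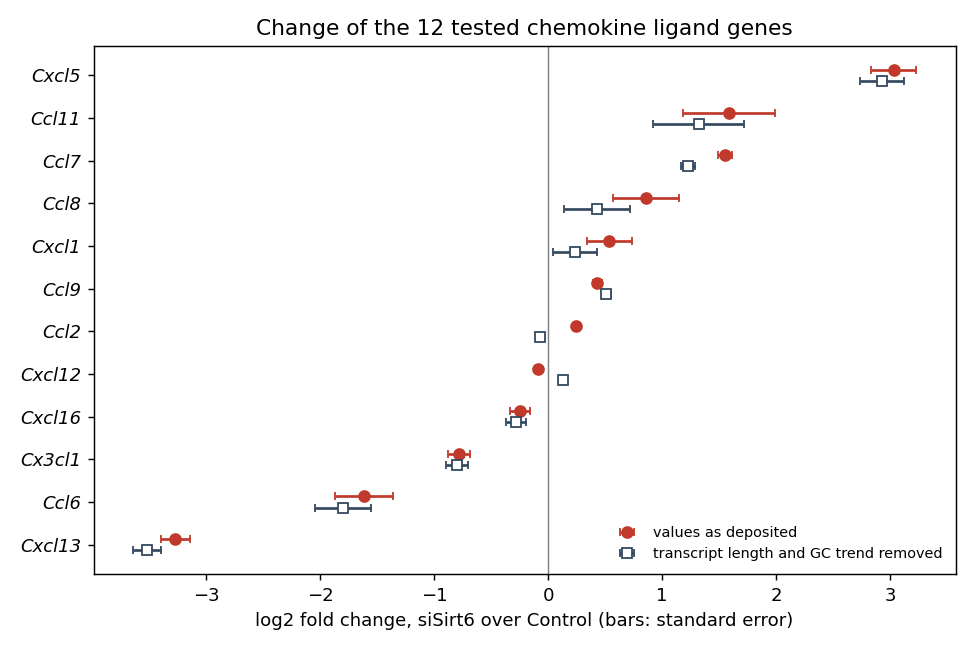
Log2 fold change of siSirt6 over Control for the 12 tested ligands, with standard errors as bars. Filled circles use the values as deposited and open squares follow the length and GC correction, under which Ccl2 turns to -0.07 and Cxcl12 to 0.13 while the other 10 keep their side of 0.

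The CC ligand genes Ccl2, Ccl7, Ccl11 and Ccl8 lie in this order within 81.2 kb of chromosome 11, all on the plus strand, with Ccl12 between Ccl11 and Ccl8. All 4 were called higher, beside 50.5% of tested genes, but Ccl11 had to be higher to be tested and lends no support. Their short transcripts put the 4 in a length bin where 84.6% of genes were higher. After the length and GC correction described further on, Ccl7 was still called higher, Ccl2 was called lower and Ccl8 was not called. The call for Ccl11 also stayed, with the same limit from the filter. Ccl7, which attracts monocytes through the receptor CCR2 among others, had counts of 2128, 2165 and 2066 in siSirt6 libraries and 640.1, 731.2 and 800.6 in Control libraries. Its groups lay well apart. The rise was 2.93-fold (log2 1.55 ± 0.0616 SE, adjusted p = 2.08e-13), the largest gain in counts among the ligands.

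Ccl2, the main monocyte attractant, lies at 82035571 to 82037453, just before Ccl7 at 82045712 to 82047525. Its counts were 3190, 3339 and 3155 in siSirt6 libraries and 2717, 2729 and 2706 in Control libraries. Control libraries differed among themselves by less than 1%. The rise was 1.19-fold (log2 0.25 ± 0.0311 SE, adjusted p = 1.35e-08), but after the length and GC correction Ccl2 was lower instead (-0.07, adjusted p = 0.0323). The direction for Ccl2 depends on that step. A gene on the opposite strand, Gm17268, overlaps it.

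Ccl11, or eotaxin, attracts eosinophils. It was low, with 22.7, 20.6 and 16.7 in siSirt6 libraries and 6.83, 7.79 and 3.86 in Control libraries. The ratio of means was 3.25 (log2 1.59 ± 0.402 SE), given with no p because only its siSirt6 libraries reached the filter, and the reads behind it summed to 59 in siSirt6 and 19 in Control libraries. Ccl8, known in mouse as a ligand of CCR8, had 28.7, 28.9 and 32.3 in siSirt6 libraries and 18.5, 13.6 and 16.4 in Control libraries. Ccl8 rose 1.85-fold (log2 0.86 ± 0.290 SE, adjusted p = 0.00639). The length and GC correction left 0.43 (adjusted p = 0.179), and DESeq2 on 5 libraries gave an adjusted p of 0.0656.

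The 4 neighbours did not keep their proportions. The Ccl7 to Ccl2 ratio (each count + 1) was 0.667, 0.648 and 0.655 in siSirt6 libraries and 0.236, 0.268 and 0.296 in Control libraries. Ccl7 thus gained 2.47-fold on Ccl2 (difference of mean log2 ratios 1.31 ± 0.0957 SE). For Ccl8 to Ccl2 the difference was 0.61 ± 0.143, and for Ccl11 to Ccl2 it was 1.34 ± 0.284. Neither overlapped between the groups, but 96.8% of single tested genes did not overlap either. Ccl11 had to be higher to be tested, so its ratio lends no support. None of the 50-base stretches of the Ccl2, Ccl7, Ccl11 or Ccl8 transcripts occurred in another gene's transcripts.

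**Figure D3:**
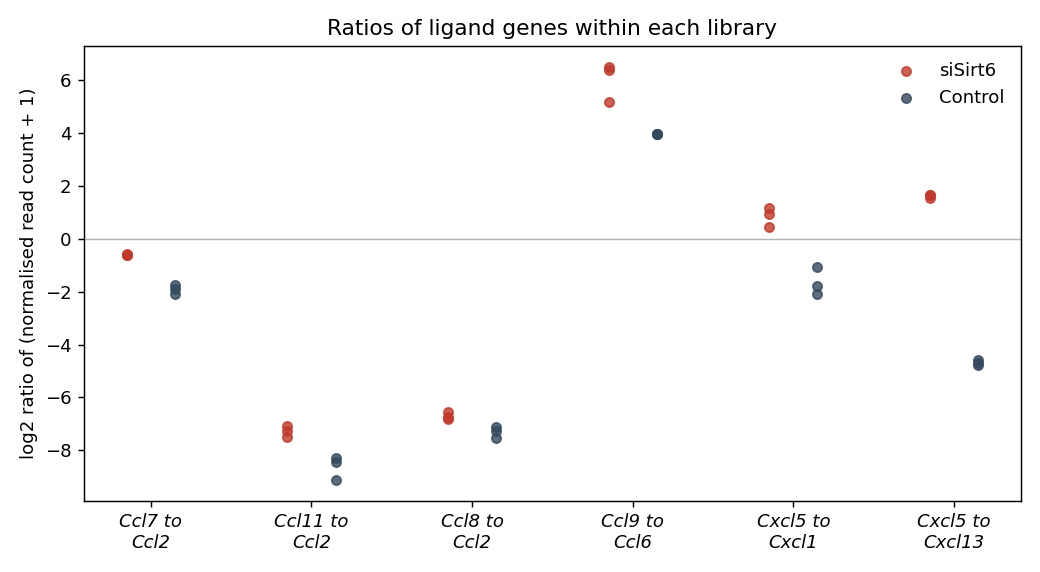
Ratio of pairs of ligand genes within each library, as log2 of (normalised read count + 1) of the first gene over that of the second, 1 point per library, siSirt6 left of Control. The 6 pairs do not overlap between groups, and neither do 96.8% of single tested genes. Ccl7 to Ccl2 differs by 1.31 and Cxcl5 to Cxcl13 by 6.30.

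Ccl9 and Ccl6, which encode myeloid attractants known in rodents to act through CCR1, are neighbours on the minus strand of chromosome 11 within 20.2 kb, and they moved in opposite directions. Ccl9 counts were 1809, 1975 and 1903 in siSirt6 libraries and 1441, 1386 and 1389 in Control libraries. Ccl9 rose 1.35-fold (log2 0.43 ± 0.0403 SE, adjusted p = 2.06e-11), and the length and GC correction left 0.51. Ccl6 counts were 49.4, 22.7 and 19.8 in siSirt6 libraries and 91.7, 86.7 and 86.9 in Control libraries. The siSirt6 libraries were spread, with replicate 1 above the others, and the Control libraries were close together. Ccl6 fell to 0.346 (log2 -1.62 ± 0.254 SE, adjusted p = 4.59e-06), and without siSirt6 replicate 1 the log2 fold change was -2.01. The Ccl9 to Ccl6 ratio was 35.9, 83.5 and 91.7 in siSirt6 libraries and 15.6, 15.8 and 15.8 in Control libraries. A gene on the opposite strand, E230016K23Rik, overlaps Ccl6. Of 2957 stretches of 50 bases in the Ccl9 transcript, 59 also occur in transcripts of other genes. How such reads were counted is not given by any source used here. Both genes are known in macrophages, whose listed markers Lyz2, C1qb and Cd68 stood at 1.08, 1.26 and 1.27 times their Control levels; after the length and GC correction none of the 3 was called higher and Lyz2 was called lower. The part of such cells in these values was not tested.

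The upstream windows of this pair are shown because the genes lie side by side and moved apart. That of Ccl9 covers chr11:83578637-83578886 and that of Ccl6 chr11:83593088-83593337, both on the minus strand (RefSeq, GRCm38.p6), printed 5′ to 3′. Capitals mark matches on either strand to the TATA, AP-1 and NF-kB motifs above.
Ccl9: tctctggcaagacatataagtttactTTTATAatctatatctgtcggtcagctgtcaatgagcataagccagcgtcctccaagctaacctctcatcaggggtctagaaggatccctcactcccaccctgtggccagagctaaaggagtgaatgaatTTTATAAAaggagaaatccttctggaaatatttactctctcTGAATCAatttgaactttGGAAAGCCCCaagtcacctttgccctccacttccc
Ccl6: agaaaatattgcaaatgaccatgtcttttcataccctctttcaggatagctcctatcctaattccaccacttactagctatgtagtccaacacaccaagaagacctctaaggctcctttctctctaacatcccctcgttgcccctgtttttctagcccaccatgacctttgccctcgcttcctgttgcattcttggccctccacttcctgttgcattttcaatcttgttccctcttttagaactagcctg
The Ccl9 window holds 3 matches to TATAAA, of which 2 overlap each other, an AP-1 match read on both strands, and, 25 bases before the start site, an NF-kB match on the opposite strand. The Ccl6 window holds none of these motifs. These letters show nothing of what moved the genes.

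Per kilobase of transcript, the order of the ligands changed. In siSirt6 libraries Ccl2 led at 3971 ± 120 normalised reads per kb, followed by Ccl7 at 2646 ± 62.5, Cxcl12 at 2419 ± 36.8 and Ccl9 at 630.6 ± 27.8 (SD, n = 3). Control libraries had Ccl2 at 3342 ± 14.2, then Cxcl12 at 2573 ± 42.1, Ccl7 at 903.8 ± 101 and Ccl9 at 467.6 ± 10.3. In siSirt6 libraries Ccl7 thus stood above Cxcl12, which it did not in Control. This order rests on the longest coding transcript of each gene, 5627 nt for Cxcl12 and 801 nt for Ccl7. It also uses values without the length and GC correction described further on. After that correction the log2 fold change was 1.23 for Ccl7 and 0.13 for Cxcl12, and their order was not computed. By reads Cxcl12 stood above Ccl7 in both groups, with means of 13610 and 2120 in siSirt6 libraries. Cxcl13 ranked 10th of the ligands at 42.2 ± 6.44 in siSirt6 libraries and the fifth at 412.1 ± 23.7 in Control libraries. Cxcl5 ranked the fifth at 95.7 ± 12.6 in siSirt6 and 11th at 11.1 ± 1.03 in Control libraries. Some neighbours in the order did not differ beyond their spread over libraries: Cxcl5, Cxcl16 and Cxcl1, then Cx3cl1 and Ccl8, and Ccl6 and Ccl11 in siSirt6, and Cxcl16 and Cx3cl1, and Ccl6 and Cxcl1 in Control.

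Summed over the 13 ligands, the counts were 21677 ± 171 in siSirt6 and 20635 ± 242 in Control libraries (SD, n = 3). As a share of all listed reads the direction turned, with 0.142% in siSirt6 and 0.146% in Control libraries, so the direction of the total depends on the scaling. Cxcl12 made up 62.8% ± 0.791 of this sum in siSirt6 and 70.2% ± 0.358 in Control libraries. The 6 CC ligands summed to 7324 ± 198 in siSirt6 and 4957 ± 44.0 in Control libraries, 1.48 times the Control level. The 5 CXC ligands other than Cxcl12 summed to 537.7 ± 32.1 in siSirt6 and 846.5 ± 52.4 in Control libraries, 0.635 of Control. Ccl7 gave the largest share of the first difference. In the second, the fall of Cxcl13 exceeded the fall of the whole sum, with Cxcl5 and Cxcl1 higher.

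Most ligand transcripts are short, and short transcripts were higher in siSirt6 across the tables. When tested genes were cut into 5 equal bins by transcript length, 84.6% of the bin of 67 to 1618 nt had a higher mean log2 in siSirt6, against 20.2% of the bin of 5253 nt and above. Ccl8 (511 nt), Ccl7 (801 nt), Ccl2 (813 nt), Cxcl1 (953 nt), Ccl11 (1082 nt), Cxcl13 (1150 nt), Ccl6 (1440 nt) and Cxcl5 (1575 nt) belong to the bin of shortest transcripts, and of these Cxcl13 and Ccl6 fell. Once a smooth trend on length and GC content was taken out of each library, 5 ligands were higher (Cxcl5, Ccl11, Ccl7, Ccl9 and Cxcl12) and 5 lower (Cxcl13, Ccl6, Cx3cl1, Cxcl16 and Ccl2), beside 36.5% and 36.3% of tested genes with a length. The cause of the trend was not tested.

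**Figure D4:**
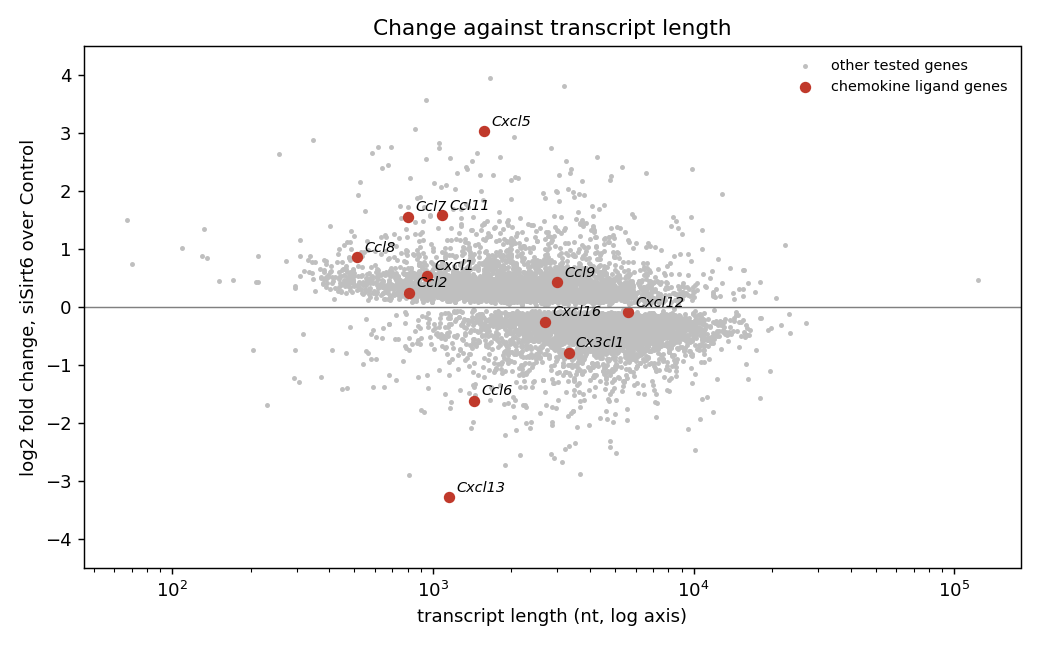
Log2 fold change of siSirt6 over Control against transcript length in nt (log axis) for tested genes with an annotated length, ligands in red and named. The shortest ligands from Ccl8 to Ccl11 lie above 0 with most short genes, while Ccl6 and Cxcl13 lie at -1.62 and -3.27.

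Of 25 chemokine receptor genes 3 were listed, 1 higher and 2 lower (median log2 -0.49), beside 50.5% and 49.3% of all tested genes. Cxcr4, the signalling receptor for Cxcl12, had 42.5, 25.8 and 15.6 in siSirt6 libraries and 0.98, 4.87 and 6.76 in Control libraries. The siSirt6 libraries were widely spread (log2 fold change 2.58 ± 0.483 SE). Cxcr4 too reached the filter only through siSirt6 and had to be higher to be tested, so no p is given. The scavenging receptor Ackr3, which also binds Cxcl12, averaged 548.5 ± 21.0 in siSirt6 and 772.0 ± 38.1 in Control libraries and fell to 0.711 (log2 -0.49 ± 0.0601 SE, adjusted p = 7.86e-09). Ackr4, a scavenger of homeostatic CC chemokines, averaged 12.2 ± 3.37 in siSirt6 and 49.9 ± 4.08 in Control libraries and fell to 0.245. Ccr2, Cxcr2 and Cxcr5, the receptors of Ccl2 and Ccl7, of Cxcl5 and of Cxcl13, were not analysed here.

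Of 40 NF-kB pathway genes 16 were tested, 5 higher and 11 lower, beside 50.5% and 49.3% of all tested genes (median log2 -0.23, beside 0.08). The subunit precursor gene Nfkb1 fell to 0.765 and the ubiquitin ligases Birc3 and Birc2 to 0.609 and 0.755. Bcl3, a nuclear partner of the NF-kB subunits p50 and p52, rose 1.86-fold. After the length and GC correction, 5 were higher and 7 lower, beside 36.5% and 36.3%. Of 30 receptors known to act upstream of chemokine genes 20 were tested, 12 higher and 8 lower (median 0.12), against the same 50.5% and 49.3%. Il1rl1, the receptor for interleukin-33, averaged 111.2 ± 6.41 in siSirt6 and 20.1 ± 2.35 in Control libraries and rose 5.54-fold. The interleukin-4 receptor chain Il4ra rose 1.62-fold and the interleukin-17 receptor chain Il17ra 1.46-fold, while the growth factor receptor Pdgfra fell to 0.784.

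Of 34 genes for glycosaminoglycan carriers and for proteases that process chemokines or their carriers, 23 were tested, 14 higher and 9 lower (median log2 0.14), beside 50.5% and 49.3% of all tested genes. Among the 14, Mmp8 and Mmp9, named after their values were seen, reached the filter only through siSirt6 and had to be higher to be tested. The heparan sulphate carriers split. Syndecan-4, encoded by Sdc4, rose 1.69-fold and the chondroitin sulphate carrier Vcan 1.78-fold, while glypican-3, encoded by Gpc3, averaged 444.7 ± 27.8 in siSirt6 and 1432 ± 54.4 in Control libraries. The cathepsin gene Ctsl rose 1.37-fold. Of 27 genes of leukocyte recruitment and colony-stimulating factors 14 were tested, 12 higher and 2 lower (median 0.61, beside 0.08 over all tested genes), and 12 and 2 after the length and GC correction. The shares over all tested genes were 50.5% and 49.3%, and 36.5% and 36.3% after correction. Mif, a cytokine that also binds chemokine receptors, averaged 5932 ± 32.8 in siSirt6 and 3065 ± 112 in Control libraries and rose 1.93-fold. Spp1, encoding osteopontin, rose 1.31-fold and the macrophage growth factor Csf1 1.19-fold. The 2 called lower were adhesion receptors for leukocytes, while Icam2, another such gene named after its values were seen, rose 3.03-fold. Vcam1 stood at 0.427 of Control. Sele, named after its values were seen, was at 5.12 ± 1.88 in siSirt6 and 36.0 ± 8.58 in Control libraries and reached the filter only through Control.

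**Figure D5:**
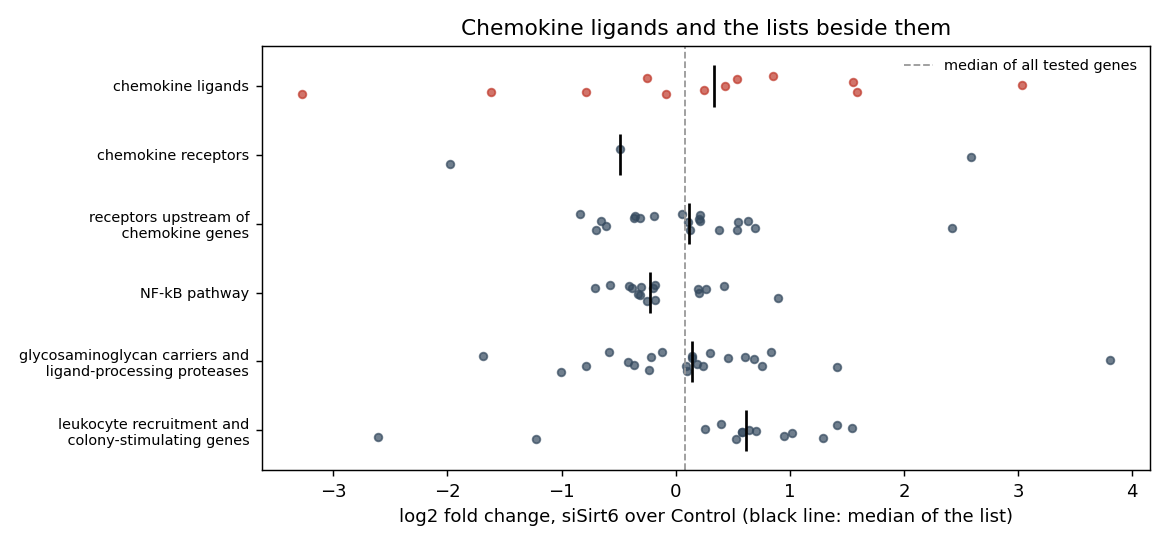
Log2 fold change of siSirt6 over Control for each tested gene of the ligands (red) and of 5 lists beside them (blue), 1 point per gene, with a black line at each median and a dashed line at the median of all tested genes. The leukocyte recruitment list has the highest median, 0.61, and the 3 receptors the lowest, -0.49.

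Genes with profiles like those of a ligand were sought by the root mean square difference in log2(count + 1), set to the Control mean, over the 6 libraries. For Cxcl5 the 3 nearest were Vgf, H2-M1 and Olfr456, at 0.230 to 0.383. For Cxcl13 they were Fmod, Angptl7 and Sele, at 0.483 to 0.561, the poorest likeness of the 12 ligands. Ccl7 was followed by Tmem45b, Adamts12 and Ptprn (0.0728 to 0.0987), Ccl11 by Sox11, Krt19 and Enkur (0.172 to 0.187) and Ccl6 by Il31ra, Lgals2 and Nxnl2 (0.204 to 0.252). Cx3cl1 was followed by Galnt4, Ldhb and Sned1, Cxcl16 by Tmx1, Lgr4 and Ranbp9, and Cxcl12 by Gask1b, Leprot and Cd9. Ccl2 was nearest to Cdc42se1, Pea15a and Rpl10a, Ccl9 to Ppp1ca, Pfkp and Fah, Ccl8 to Mfap4, Pik3cd and Tes, and Cxcl1 to Ccdc181, Cst6 and Zfp428. With 2 groups, this likeness mostly measures a change of the same size.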

How the data were processed

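RNA was sequenced from 3 siSirt6 and 3 Control cultures with a stranded mRNA kit, per the labels' protocols. Tools named in the submitters' processing notes are HISAT2, HTSeq, Cufflinks and Trimmomatic, with build mm10 and no versions or roles. The deposited signal of each gene was a whole number of reads divided by 1 factor per library (100% of values whole within 0.001 reads); no source used here tells how the authors set these factors. The main test was limma 3.58.1 in R 4.3.3 (trend, robust, 2-sided) on log2(value + 1), over genes with at least 10 in 3 libraries, with Benjamini-Hochberg adjustment over 7179 genes. Log2 fold changes are on that scale, which understates low genes; N-fold values are ratios of group means. Count tests (edgeR 4.0.16, DESeq2 1.42.0) ran on recovered reads of 5 libraries, since an automatic unit check did not accept the step of siSirt6 replicate 1. Recovered reads in the text are values divided by that step. GENCODE vM21 (GRCm38; 7332 identifiers found) gave positions and, for the longest coding transcript, length and GC content. The length and GC trend was removed per library with smooth terms (mgcv 1.9.3). Scripts were tested on simulated data. The ligands and gene lists were chosen with earlier results of these data known. Genes named are all 13 ligands, the 4 tested genes of smallest p in each list beside the ligands, the 3 nearest genes per ligand, and Sirt6; Acta2, Pdpn, Lyz2, C1qb and Cd68 were named from the cell type marker lists after their values were seen; others are said to be chosen after their values were seen.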

Additional observations from a re-analysis of the deposited data

How the results depend on the processing

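Of 12 tested ligands, Cxcl5, Ccl7, Ccl9, Cxcl13, Ccl6 and Cx3cl1 kept their direction and call in every alternative that tested them. The 7 higher and 5 lower calls (3624 and 3542 over all genes) were 4 and 4 under a filter of 5 CPM, which leaves 8 ligands (all genes 3279 and 3240), and 5 and 5 after the length and GC correction (all genes 2599 and 2591), where Ccl2 turned to -0.07 and Cxcl12 to 0.13. DESeq2 on 5 libraries called 5 higher and 5 lower (all genes 2945 and 3293), edgeR 7 and 5 (3407 and 3518). Cxcl1 lost its call with DESeq2, after the length and GC correction, without Control replicate 3 and when adjusted over all annotated genes. Ccl8 lost its call with DESeq2 and after the length and GC correction, and Cxcl16 only when adjusted over all annotated genes. Without a filter, Cxcl3 entered the fit too (log2 2.30 ± 0.618 SE). No p is given for it, because its reads were few and almost all listed genes differ between the groups. Without 1 library, 6 to 7 were higher and 5 lower. Deviations of same-numbered samples correlated at -0.019, 0.027 and -0.001, which shows no sign of pairing by number but cannot exclude it. The replicate block left 7 and 5 and changed no ligand call. Scaling to listed totals shifted the median of all genes by -0.119 (log2) and turned no ligand. Low counts limit Cxcl3, Ccl11 and Ccl8, and also the Control side of Cxcl5, with 54 reads summed over Control libraries beside 50 for Ccl8.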

Other observations

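Of 10 ligands or ligand-like genes under other symbols 2 were listed. Ccl27a, a skin-associated ligand of CCR10, averaged 88.1 ± 7.16 in siSirt6 and 59.6 ± 7.18 in Control libraries (SD, n = 3) and rose 1.48-fold (log2 0.56 ± 0.17 SE, adjusted p = 0.00291); after the length and GC correction it stood at 0.13 (adjusted p = 0.499). Under that correction Mif stood at 0.44 (adjusted p = 1.44e-16). Mmp9, a gelatinase that trims chemokines, had 47.5, 42.3 and 32.3 in siSirt6 libraries and 1.95, 1.95 and 1.93, or 2 reads each, in Control libraries. It was named after its values were seen, and it reached the filter only through siSirt6, so it had to be higher to be tested.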
